A study of Mus musculus with 27 samples.

Results

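The genes of the H19-Igf2 and Kcnq1 domains, 2 neighbouring clusters of imprinted genes on distal mouse chromosome 7, were examined in Dnmt3b-/- embryos. The members are the 10 genes of the count table whose symbol is H19, Igf2, Cdkn1c, Phlda2, Slc22a18, Kcnq1, Kcnq1ot1, Ascl2, Cd81 or Tssc4, out of 24065 genes in all. They were chosen by name and location and not by a rule on their levels, but with earlier results of these data known. All 10 passed the filter on low values, which kept the 15114 genes whose raw counts averaged 10 or more over the embryos.

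RNA-Seq was performed on whole C57BL/6J embryos at E8.5, with 3 WT and 3 Dnmt3b-/- embryos and 1 library for each embryo. The Dnmt3b-/- embryos were homozygous for alleles that leave DNMT3B, a de novo DNA methyltransferase, without catalytic activity, made from the conditional Dnmt3b-2lox line by crossing with an ACTB-Cre deleter, and came from matings between heterozygous mice. The WT embryos were littermates of the same strain with functional alleles. As both parental genomes were of one inbred strain, the counts do not separate the maternal from the paternal allele, and the allele named for each gene below is background knowledge. A lower level in a whole embryo can reflect fewer expressing cells or less RNA per cell, and these cannot be told apart.

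In an imprinted cluster, DNA methylation set in one parental germline marks an imprinting control region, and a group of genes is then transcribed from 1 parental allele. In the H19-Igf2 domain, CTCF bound to the unmethylated maternal control region keeps the shared enhancers from Igf2 and leaves them to H19, whereas the methylated paternal copy permits Igf2. In the Kcnq1 domain, the control region holds the promoter of the long non-coding RNA Kcnq1ot1, which is transcribed from the unmethylated paternal copy and silences Cdkn1c, Phlda2, Slc22a18, Kcnq1 and other genes on that chromosome. Ascl2, Cd81 and Tssc4 are known for maternal expression mainly in the placenta.

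In Dnmt3b-/- embryos, 4 members were higher, 1 was lower and 5 were not called at an adjusted p below 0.05 (edgeR quasi-likelihood test with Benjamini-Hochberg adjustment over all tested genes). Of all tested genes 17.6% were higher and 18.1% lower by this rule, so that 35.7% were called in either direction. The higher members were H19, Igf2, Cdkn1c and Kcnq1ot1, which were 1.36-fold to 1.79-fold above WT, and the lower member was Tssc4, at 0.558 of the WT level. No member combined this p with the fold change above 2 that the study also required, since Ascl2, the one member past that fold, had an adjusted p of 0.118 by edgeR. By the combined rule 5.90% of the tested genes were called, 2.12% higher and 3.78% lower. The paper itself reports increases of less than 2-fold for H19 and Cdkn1c in Dnmt3b-/- embryos. It associates them with DNMT3B-dependent methylation that these loci gain after implantation. After a correction for GC content and length, Cdkn1c (log2 fold change 1.23) and Kcnq1ot1 (1.4) met both criteria, and Phlda2 (1.22) and Ascl2 (1.80) met that of the fold alone. The corrected value of Kcnq1ot1 is limited by its unusual exon length, as described below. The median log2 fold change was 0.49 over the 10 members and -0.029 over all tested genes. Of the members, 4 had all Dnmt3b-/- embryos above all WT embryos and 1 had them all below, a separation seen for 25.3% and 26.5% of the tested genes, or 51.8% in either direction. Together the members took 0.433% to 0.459% of the counts of the WT embryos and 0.558% to 0.710% of those of the Dnmt3b-/- embryos, mostly through H19.

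Promoter sequences are shown for the members whose level changed and that have an entry in the RefSeq promoter table of GRCm38.p6, together with Cd81, the upstream neighbour of Tssc4 that did not pass the test. They are windows of 300 bases around an annotated start, 5′ to 3′ on the strand of the gene, and the capitals mark CpG dinucleotides, the sites at which DNA methyltransferases act. The windows lie at chr7:143296498-143296797 on the minus strand (Kcnq1ot1), chr7:142657447-142657746 on the minus strand (Igf2, 1 of 4 windows of this gene), chr7:143069118-143069417 on the plus strand (Tssc4) and chr7:143052500-143052799 on the plus strand (Cd81). The windows of Kcnq1ot1 and Cd81 span the outer start of the gene. Those of Tssc4 and Igf2 lie inside the annotated genes, at chr7:143068416-143071093 and chr7:142650768-142666816.
Kcnq1ot1: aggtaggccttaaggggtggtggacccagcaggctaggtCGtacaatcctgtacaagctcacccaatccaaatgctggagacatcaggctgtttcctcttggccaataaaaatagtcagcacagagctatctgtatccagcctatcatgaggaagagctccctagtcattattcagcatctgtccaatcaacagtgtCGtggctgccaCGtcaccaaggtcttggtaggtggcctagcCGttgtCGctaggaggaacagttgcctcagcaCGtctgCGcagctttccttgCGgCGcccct
Igf2: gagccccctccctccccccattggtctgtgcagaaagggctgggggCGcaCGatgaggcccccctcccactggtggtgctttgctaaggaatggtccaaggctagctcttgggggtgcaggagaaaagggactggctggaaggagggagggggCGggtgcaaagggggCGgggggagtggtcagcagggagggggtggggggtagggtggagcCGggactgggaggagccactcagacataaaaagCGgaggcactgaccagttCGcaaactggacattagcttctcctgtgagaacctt
Tssc4: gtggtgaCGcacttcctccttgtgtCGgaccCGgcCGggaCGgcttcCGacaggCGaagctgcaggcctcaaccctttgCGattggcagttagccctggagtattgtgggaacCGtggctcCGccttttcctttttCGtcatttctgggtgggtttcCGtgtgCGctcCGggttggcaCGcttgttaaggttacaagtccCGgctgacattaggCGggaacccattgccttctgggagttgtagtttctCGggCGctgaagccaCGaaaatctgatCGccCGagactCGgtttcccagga
Cd81: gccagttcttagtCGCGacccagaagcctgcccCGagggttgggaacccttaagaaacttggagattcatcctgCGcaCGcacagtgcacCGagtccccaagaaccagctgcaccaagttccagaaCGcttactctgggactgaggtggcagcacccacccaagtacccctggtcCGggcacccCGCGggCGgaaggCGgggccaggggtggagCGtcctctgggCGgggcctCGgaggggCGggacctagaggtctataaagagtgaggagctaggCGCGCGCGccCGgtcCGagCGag
The letters CG occurred 9 times in the Kcnq1ot1 window, 7 times in the Igf2 window and 23 times in each of the windows of Tssc4 and Cd81. The other windows of Igf2 held 24, 14 and 2 CpGs. Among the 32851 promoter windows of the table, 94.6% held at least 1 CpG, the median was 7, and 21.5% held at least 23. The responses of the Tssc4 and Cd81 transcripts are described further down, and any part of the CpG number in them was not tested. Methylation of these windows was not analysed here.

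The non-coding RNA of the H19-Igf2 domain, H19, is transcribed from the maternal allele and lies at chr7:142575530-142578146 on the minus strand. H19 reached 161357, 174726 and 174941 normalized counts (raw counts scaled by TMM to a common library size) in WT embryos 1, 2 and 3 and 278844, 226684 and 237882 in Dnmt3b-/- embryos 1, 2 and 3. All 3 Dnmt3b-/- embryos lay above all WT embryos, and the first was the highest. The mean rose from 170341 ± 7781 to 247803 ± 27459 (SD, n = 3 each), with a log2 fold change of 0.54 and a standard error of 0.089 (edgeR adjusted p = 0.00269). H19 was already the 11th most abundant gene of the WT embryos by count.

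An exon of H19 holds the precursor of miR-675, whose 2 mature forms are shown because they are the known small RNA products of this transcript, with the seed (bases 2 to 8) in capitals, from RefSeq.
miR-675-5p: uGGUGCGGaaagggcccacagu
miR-675-3p: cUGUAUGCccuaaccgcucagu
The 2 seeds differ. The precursor gene Mir675 shares 84 bases with H19 exons and had 0 counts in all 6 embryos, so the libraries carry no value for it apart from the H19 count.

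The growth factor gene of the same domain, Igf2, is expressed from the paternal allele and encodes the main fetal insulin-like growth factor. Igf2 had 19274, 14575 and 18756 normalized counts in WT embryos 1, 2 and 3 and 25507, 21890 and 24177 in Dnmt3b-/- embryos 1, 2 and 3. The genotypes did not overlap, with all Dnmt3b-/- embryos above WT. The mean rose from 17535 ± 2577 to 23858 ± 1829 (SD, n = 3 each), with a log2 fold change of 0.44 and a standard error of 0.115 (edgeR adjusted p = 0.0178). With total counts as scaling the log2 fold change was 0.37 (edgeR adjusted p = 0.050), just above the threshold. Igf2 shares 98 exon bases with Igf2os, transcribed on the opposite strand, and as the strand setting of the counting is not given, reads there cannot be assigned to one of them.

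H19 and Igf2 rose by similar amounts, so their ratio was compared within each embryo, which does not depend on scaling. The ratio of H19 to Igf2 raw counts was 8.37, 12 and 9.33 in WT embryos 1, 2 and 3 and 10.9, 10.4 and 9.84 in Dnmt3b-/- embryos 1, 2 and 3. The Dnmt3b-/- ratios all lay within the range of the WT ratios. The mean log2 ratio was 3.29 ± 0.27 in WT and 3.37 ± 0.076 in Dnmt3b-/- embryos (SD, n = 3 each), a difference of 0.084 that is smaller than the spread between the WT embryos. With 3 embryos against 3 an exact test cannot go below p = 0.10, and none was run on the ratios.

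**Figure D1:**
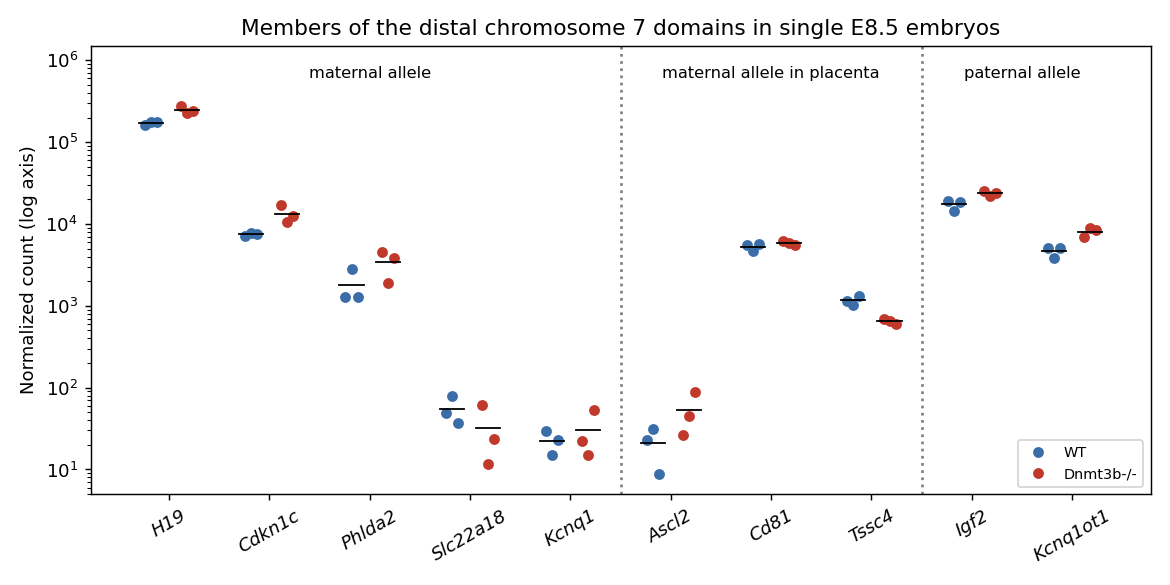
Normalized counts (log axis) of the 10 members in each embryo, with WT embryos in blue, Dnmt3b-/- embryos in red and the group means as black lines. H19, Cdkn1c, Igf2 and Kcnq1ot1 have all red points above all blue points, Tssc4 has all red points below, and the points of the other 5 genes overlap.

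The paternally expressed regulator of the Kcnq1 domain, Kcnq1ot1, lies at chr7:143213111-143296547 on the minus strand within Kcnq1, on the opposite strand. Kcnq1ot1 had 5061, 3855 and 5074 normalized counts in WT embryos 1, 2 and 3 and 6896, 8824 and 8403 in Dnmt3b-/- embryos 1, 2 and 3, so that the lowest Dnmt3b-/- embryo exceeded the highest WT embryo. The mean rose from 4663 ± 700 to 8041 ± 1014 (SD, n = 3 each), with a log2 fold change of 0.79 and a standard error of 0.131 (edgeR adjusted p = 0.00288). Its annotated exon length is 83437 bases and its GC content 40.8%, against a median GC content of 50.3% over all tested genes. Genes called higher had a median GC content of 45.0% and genes called lower one of 55.7%. After a correction for GC content and length the log2 fold change of Kcnq1ot1 was larger, at 1.4. Only 2 tested genes, Kcnq1ot1 included, had an exon length of at least 83437 bases, against a median of 3100 bases. The corrected value thus rests on the edge of the range of lengths.

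Among the genes that Kcnq1ot1 silences on the paternal chromosome, Cdkn1c encodes the cyclin-dependent kinase inhibitor p57Kip2, which restrains cell division and embryonic growth. Cdkn1c had 7040, 7870 and 7521 normalized counts in WT embryos 1, 2 and 3 and 17247, 10489 and 12400 in Dnmt3b-/- embryos 1, 2 and 3. The groups did not overlap, but the Dnmt3b-/- embryos were more spread than the WT embryos. The mean rose from 7477 ± 417 to 13379 ± 3484 (SD, n = 3 each), with a log2 fold change of 0.84 and a standard error of 0.164 (edgeR adjusted p = 0.00546). Without Dnmt3b-/- embryo 1 the log2 fold change was 0.63 and still called.

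The ratio of Cdkn1c to Kcnq1ot1 counts, a silenced gene against its silencer, was 1.39, 2.04 and 1.48 in WT embryos 1, 2 and 3 and 2.50, 1.19 and 1.48 in Dnmt3b-/- embryos 1, 2 and 3. The ratios overlapped, with the highest and the lowest value both in Dnmt3b-/- embryos. The mean log2 ratio differed by 0.020, against SDs of 0.30 in WT and 0.55 in Dnmt3b-/- embryos.

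Phlda2, at chr7:143501545-143503145, encodes a pleckstrin homology domain protein that limits placental growth. Phlda2 had 1284, 2858 and 1271 normalized counts in WT embryos 1, 2 and 3 and 4503, 1874 and 3789 in Dnmt3b-/- embryos 1, 2 and 3. WT embryo 2 and Dnmt3b-/- embryo 2 crossed, so that the groups overlapped. The log2 fold change was 0.91 with a standard error of 0.386 (edgeR adjusted p = 0.0990). Without WT embryo 2 it was 1.41 (edgeR adjusted p = 0.00845), and leaving out Dnmt3b-/- embryo 2 gave 1.20 (edgeR adjusted p = 0.0485). Each of the other 4 omissions left Phlda2 uncalled at a smaller log2 fold change, of 0.66 to 0.84. WT embryo 2 also had the highest summed level of yolk sac and visceral endoderm markers, at 3896 CPM against 253 to 1233 CPM in the other embryos, and the part of this in the Phlda2 value was not tested.

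Slc22a18, a gene for a transporter of the organic cation family, and Kcnq1, which encodes the pore-forming subunit of a voltage-gated potassium channel, had low counts. Slc22a18 had 48.3, 78.1 and 37.2 normalized counts in WT embryos 1, 2 and 3 and 62.1, 11.7 and 23.8 in Dnmt3b-/- embryos 1, 2 and 3, with a log2 fold change of -0.73 (edgeR adjusted p = 0.387). Kcnq1 had 29.3, 14.9 and 23.0 normalized counts in WT embryos 1, 2 and 3 and 22.0, 15.2 and 53.3 in Dnmt3b-/- embryos 1, 2 and 3, with a log2 fold change of 0.41 (edgeR adjusted p = 0.607). Both overlapped between the genotypes, and the value of Kcnq1 turned to -0.26 without Dnmt3b-/- embryo 3. The value of Slc22a18 ran from -1.60 without Dnmt3b-/- embryo 1 to -0.33 without Dnmt3b-/- embryo 2 and was called in neither. All these levels lay above the floor of 3 counts, which corresponds to 2.38 to 3.5 normalized counts, and their spread between embryos was large beside the differences. Kcnq1 shares 121 exon bases with Kcnq1ot1 on the opposite strand, which is 3.99% of the Kcnq1 exons, and without a known strand setting reads in them cannot be told apart.

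Of the members known for maternal expression in the placenta, Tssc4 was called and its neighbour Cd81 was not. Tssc4 had 1148, 1020 and 1320 normalized counts in WT embryos 1, 2 and 3 and 690, 661 and 594 in Dnmt3b-/- embryos 1, 2 and 3. The highest Dnmt3b-/- embryo was below the lowest WT embryo, and the mean fell from 1163 ± 151 to 648 ± 49.4 (SD, n = 3 each), with a log2 fold change of -0.84 and a standard error of 0.130 (edgeR adjusted p = 0.00209). Its exons have a GC content of 59.9%, and after the correction for GC content and length its log2 fold change was -0.41 (edgeR adjusted p = 0.0308). With a replicate block added to this correction, the value of -0.40 was no longer called (edgeR adjusted p = 0.0763). Cd81 is a tetraspanin gene that ends 485 bases before the outermost annotated start of Tssc4 on the same strand. Cd81 had 5500, 4691 and 5654 normalized counts in WT embryos 1, 2 and 3 and 6165, 5900 and 5614 in Dnmt3b-/- embryos 1, 2 and 3. The genotypes overlapped, and the log2 fold change was 0.16 with a standard error of 0.087 (edgeR adjusted p = 0.193). It was 0.079 without WT embryo 2.

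The ratio of Cd81 to Tssc4 counts, which was chosen after the values were seen, was 4.79, 4.60 and 4.28 in WT embryos 1, 2 and 3 and 8.92, 8.92 and 9.44 in Dnmt3b-/- embryos 1, 2 and 3. The mean log2 ratio was 2.19 ± 0.082 in WT and 3.18 ± 0.047 in Dnmt3b-/- embryos (SD, n = 3 each), a difference of 1.00 with no overlap. Among the ratios described here, the genotypes separated in this one. With the correction for GC content and length, the log2 fold changes of Cd81 and Tssc4 differed by 0.65 instead of 1.00.

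Ascl2 encodes a basic helix-loop-helix factor needed for trophoblast development. Ascl2 had 23.0, 31.0 and 8.85 normalized counts in WT embryos 1, 2 and 3 and 26.1, 45.5 and 89.5 in Dnmt3b-/- embryos 1, 2 and 3. The groups overlapped, and the log2 fold change of 1.36 with a standard error of 0.612 did not pass the test (edgeR adjusted p = 0.118). It ran from 0.79 without Dnmt3b-/- embryo 3 to 1.73 without WT embryo 2, and was 0.53 with limma on log2(CPM + 1), none of them called. The trophoblast markers Tpbpa, Prl3d1 and Prl2c2 had 0 counts in all 6 embryos, and the summed level of the 10 trophoblast markers was 4.82 to 8.87 CPM in WT and 5.74 to 17.4 CPM in Dnmt3b-/- embryos, highest in Dnmt3b-/- embryo 1. Of the 3 trophoblast markers tested 1 was higher, with a median log2 fold change of 1.08. This was Rhox9 (3.13, edgeR adjusted p = 0.0317), a homeobox gene of the Rhox cluster. The paper names Rhox9 among the genes strongly upregulated in Dnmt3b-/- embryos, so its level here does not stand for trophoblast alone. Elf5, a transcription factor gene of trophoblast stem cells, had 33.3, 25.3 and 21.2 normalized counts in WT embryos 1, 2 and 3 and 35.1, 59.5 and 74.8 in Dnmt3b-/- embryos 1, 2 and 3 (log2 fold change 1.08, edgeR adjusted p = 0.0802). The part of these markers in the Ascl2 value was not tested.

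**Figure D2:**
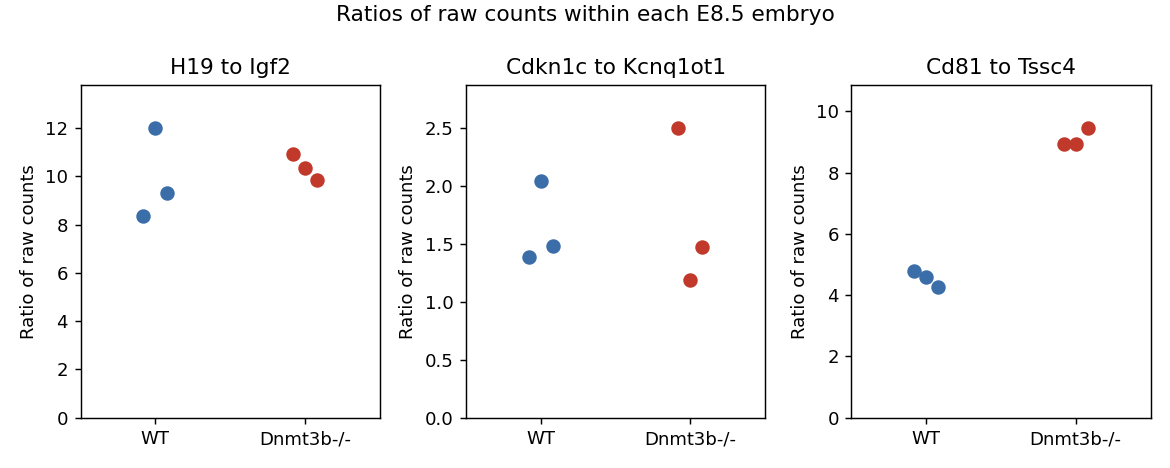
Ratio of raw counts of 2 members within each embryo (linear axis from 0), with WT embryos in blue and Dnmt3b-/- embryos in red. The ratios of H19 to Igf2 and of Cdkn1c to Kcnq1ot1 overlap between the genotypes, and the ratio of Cd81 to Tssc4 is 4.28 to 4.79 in WT and 8.92 to 9.44 in Dnmt3b-/- embryos.

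Members were then compared by the parental allele they are known to be expressed from. Of the 8 maternally expressed members, 2 were higher (H19 and Cdkn1c), 1 was lower (Tssc4) and 5 were not called, at a median log2 change of 0.48. Among all tested genes 17.6% were higher and 18.1% lower. Both paternally expressed members, Igf2 and Kcnq1ot1, were higher, with a median of 0.61. The called increases were of genes of either parental allele and lay in both domains, which is a description of few genes. Among the 5 maternally expressed members known to be imprinted in the embryo as well as the placenta, 2 were higher and none was lower, with a median of 0.54. The 3 placental members had a median of 0.16. With 2 paternally expressed members, the classes were described and not tested against each other.

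Levels were compared between genes as FPKM, which accounts for exon length. In WT embryos H19 was far above the other members, at 1546 ± 70.6 FPKM (SD, n = 3). Igf2 at 80.4 ± 11.8, Cdkn1c at 80.0 ± 4.46, Cd81 at 72.3 ± 7.08 and Phlda2 at 50.8 ± 25.7 FPKM followed, and each of these overlapped the next in its range over embryos. Tssc4 at 17.3 ± 2.25 FPKM stood apart from both its neighbours in this order. Kcnq1ot1 at 1.16 ± 0.17 and Slc22a18 at 0.715 ± 0.277 FPKM overlapped, as did Ascl2 at 0.270 ± 0.144 and Kcnq1 at 0.154 ± 0.049 FPKM. In Dnmt3b-/- embryos the order changed only among neighbours whose ranges overlapped in one of the genotypes, with Cdkn1c at 143 ± 37.3 FPKM above Igf2 at 109 ± 8.39, Phlda2 above Cd81, and Ascl2 above Slc22a18.

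**Figure D3:**
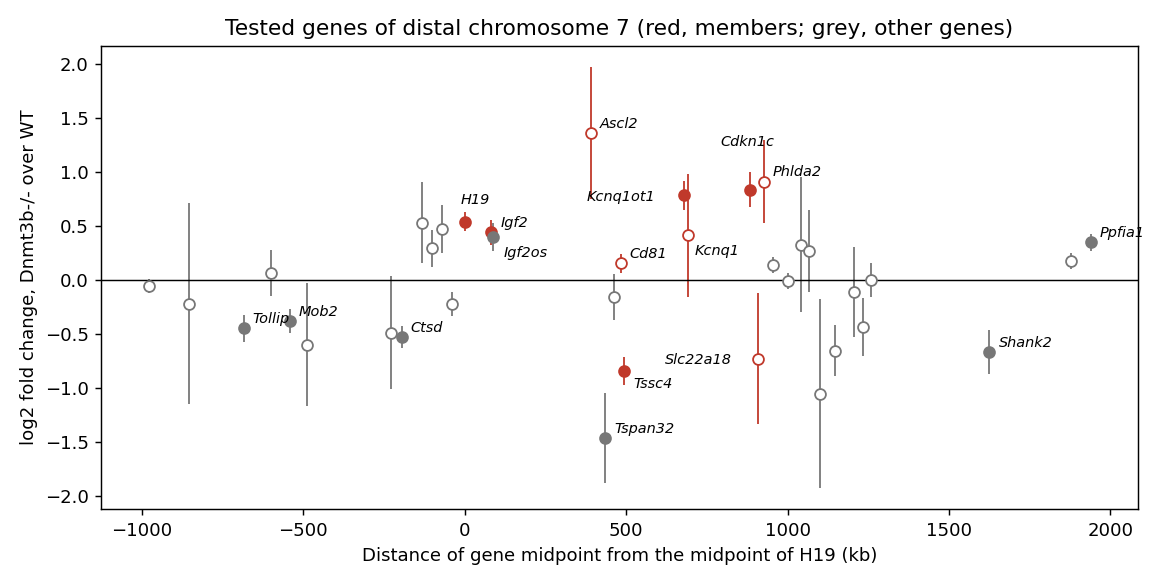
Log2 fold change of Dnmt3b-/- over WT (points, with the standard error) for the tested genes within 1 Mb of the members, against the distance of each gene's midpoint from that of H19, with filled points at an adjusted p below 0.05. The 4 higher members lie in both domains, and Tssc4 and Tspan32 are the genes called lower between the first and the last member.

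The members span 928 kb, and 51 other genes lie between them or within 1 Mb on either side. Of these 27 were tested, 2 were higher and 5 lower, with a median log2 fold change of -0.11, beside 17.6% higher and 18.1% lower among all tested genes. Between the first and the last member 3 other genes were tested. Igf2os, the antisense transcript of Igf2, was higher by a log2 fold change of 0.40 (edgeR adjusted p = 0.0451). Tspan32, a tetraspanin gene near Cd81, was lower by -1.46 (edgeR adjusted p = 0.0258), from 46.0, 37.9 and 66.4 to 22.0, 16.3 and 15.9 normalized counts in embryos 1, 2 and 3. Outside this interval Shank2 (-0.67), Ctsd (-0.52), Tollip (-0.44) and Mob2 (-0.38) were lower by the same test, and Ppfia1 (0.35) was higher. A list of 16 further imprinted or candidate genes of the 2 domains had 9 tested members, of which Igf2os was higher and Tspan32 lower, with a median log2 fold change of 0.005. The most abundant of them, Nap1l4, a histone chaperone gene, had a log2 fold change of 0.14 (edgeR adjusted p = 0.184).

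Genes that act with the members were examined as lists. The values of these and the following lists carry no correction for GC content and length. Of all tested genes 17.6% were higher and 18.1% lower. Of 17 genes of the insulin and IGF pathway (ligands, receptors, receptor substrates, IGF-binding proteins and proteins that bind Igf2 mRNA) 15 were tested, and 2 were higher and 5 lower, with a median log2 fold change of -0.085. Igf2r, whose receptor clears IGF2, was lower by -0.78 (edgeR adjusted p = 0.0119), and Igfbp2 by -0.83 (edgeR adjusted p = 0.00484). Igf2bp1, an RNA-binding protein gene and the most abundant of the list, was lower by -0.67 (edgeR adjusted p = 0.00114), whereas its paralog Igf2bp2 was higher by 0.63 (edgeR adjusted p = 0.00190).

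Of 16 genes of G1 control (cyclins, their kinases, the inhibitors of these, and the downstream regulators Rb1 and E2f1) 14 were tested. Of these, 4 were higher and 2 lower, beside 17.6% higher and 18.1% lower among all tested genes. Their median log2 fold change was 0.12. Cdkn1b, which encodes p27Kip1 and is a paralog of Cdkn1c, had 1840, 1805 and 1911 normalized counts in WT embryos 1, 2 and 3 and 3451, 3367 and 3841 in Dnmt3b-/- embryos 1, 2 and 3. Its log2 fold change was 0.94 (edgeR adjusted p = 0.000431), with no overlap. Ccnd3 was lower by -1.08 (edgeR adjusted p = 0.00240), Ccne2 higher by 0.75 (edgeR adjusted p = 0.00231), Rb1, the retinoblastoma gene, higher by 0.56 (edgeR adjusted p = 0.0131), and the most abundant gene, Cdk4, lower by -0.36 (edgeR adjusted p = 0.0123).

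Of 17 genes for factors that maintain imprints or silence alleles 16 were tested, and 8 were higher and 2 lower, with a median log2 fold change of 0.30. The shares over all tested genes were 17.6% higher and 18.1% lower. Hells (0.69, edgeR adjusted p = 0.00247) and Uhrf1 (0.54, edgeR adjusted p = 0.00104), which aid maintenance of DNA methylation, were higher, as was the Polycomb gene Rnf2 (0.40, edgeR adjusted p = 0.00252). The histone methyltransferase gene Ehmt2 was lower by -0.69 (edgeR adjusted p = 0.000873), and Trim28, the co-repressor of imprint-binding zinc finger proteins and the most abundant of the list, by -0.39 (edgeR adjusted p = 0.00334).

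Imprinted genes of other chromosomes and domains were listed by the allele expressed, to be read beside 17.6% higher and 18.1% lower among all tested genes. Of 10 maternally expressed genes, all tested, 2 were higher, the non-coding RNAs Mirg (1.18, edgeR adjusted p = 0.00105) and Meg3 (0.67, edgeR adjusted p = 0.00832), and Igf2r was lower, the median log2 change being 0.30. Of 23 paternally expressed genes 21 were tested, and 6 were higher and 2 lower, with a median of 0.22. Among the higher ones were Mkrn3 (0.80, edgeR adjusted p = 0.0148), Usp29 (0.55, edgeR adjusted p = 0.0152) and Mest (0.53, edgeR adjusted p = 0.00432), the most abundant of the list. The lower ones were Dlk1 (-0.99, edgeR adjusted p = 0.0103) and Rtl1 (-2.30, edgeR adjusted p = 0.0374), both of the Dlk1-Meg3 cluster. The most abundant maternally expressed gene, Grb10, had a log2 fold change of 0.071 (edgeR adjusted p = 0.598).

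**Figure D4:**
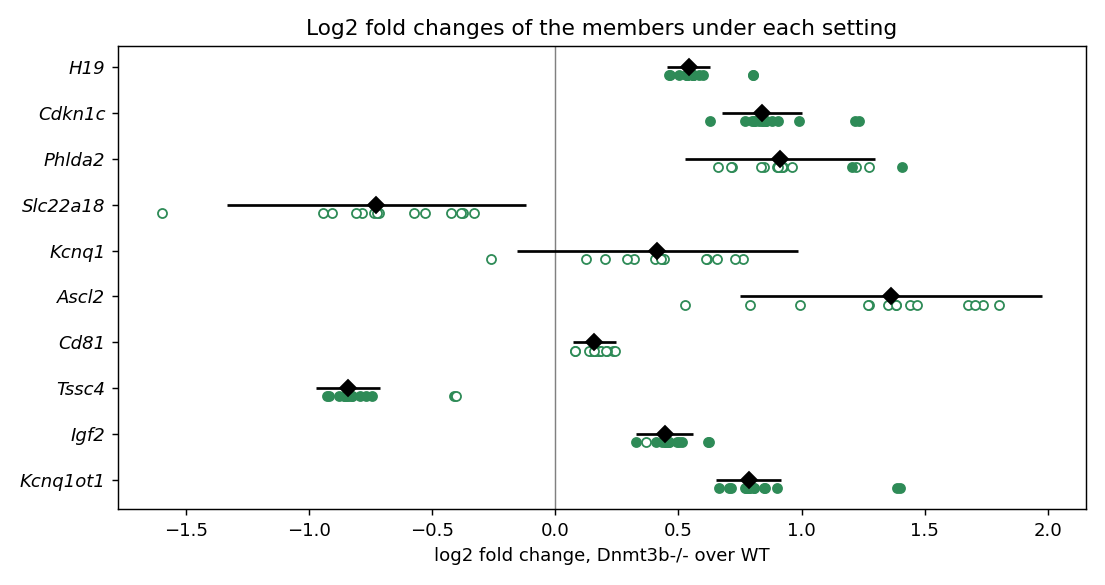
Log2 fold change of each member under the settings used in the report (black diamonds, with the standard error) and under each alternative (green circles, filled at an adjusted p below 0.05). H19, Cdkn1c and Kcnq1ot1 are filled under all alternatives, and the circles of Slc22a18, Kcnq1, Ascl2 and Cd81 are all open.

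Across the libraries the raw counts summed to 41489332 to 58470286 in WT and 42424368 to 47788062 in Dnmt3b-/- embryos. Dnmt3b itself had 7287, 14003 and 6301 normalized counts in WT embryos 1, 2 and 3 and 4076, 4557 and 4756 in Dnmt3b-/- embryos 1, 2 and 3 (log2 fold change -1.04, edgeR adjusted p = 0.0169). All 11 markers of embryonic tissues were tested, and their sum was 439 to 508 CPM in WT and 434 to 514 CPM in Dnmt3b-/- embryos. Of these, Tnnt2 and Six3 were called higher and Sox2 and Nkx2-5 lower. Markers of other tissues varied between embryos. The yolk sac and visceral endoderm sum was 459 to 3896 CPM in WT and 253 to 900 CPM in Dnmt3b-/- embryos. The median log2 fold change of its 10 markers was -1.18, against -0.029 over all tested genes, and 1 of them was called, Amn, which was lower. Over all tested genes 17.6% were called higher and 18.1% lower. The sum for extraembryonic mesoderm and allantois was 401 to 586 CPM in WT and 173 to 307 CPM in Dnmt3b-/- embryos, without overlap, with 1 of 6 markers higher (Vcam1) and 1 lower (Ahnak). Without Ahnak, which made up most of it, this sum was 63.3 to 79.7 CPM in WT and 60.9 to 105 CPM in Dnmt3b-/- embryos and overlapped. The primitive erythroid sum was 254 to 1445 and 327 to 930 CPM and the decidual sum 29.9 to 43.9 and 36.2 to 45.1 CPM, with none of their markers called. The median log2 fold change was 0.047 for embryonic, 0.008 for extraembryonic mesoderm, -0.37 for erythroid and 0.19 for decidual markers. H19 and Igf2 are also strongly expressed in extraembryonic tissues, and the part of these marker levels in the members' values was not tested. Without WT embryo 2, the highest in yolk sac markers, the log2 fold changes of Igf2 and Kcnq1ot1 were 0.33 and 0.67. Those of H19, Cdkn1c and Tssc4 were 0.56, 0.88 and -0.93, and all 5 genes were still called. The yolk sac sums of the remaining embryos still varied, at 1233 and 459 CPM in WT embryos 1 and 3 and 253 to 900 CPM in Dnmt3b-/- embryos. This omission therefore does not test the part of the markers.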

How the data were processed

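RNA-Seq libraries of rRNA-depleted total RNA were made from 3 WT and 3 Dnmt3b-/- E8.5 embryos with a stranded kit. The authors used TopHat2 2.0.12 for alignment to mm10 and HTSeq 0.6.0 for counting over RefSeq exons, and deposited raw counts per gene. The RefSeq release and the strand setting are not given in the sources used here. The normalized signal, log2 fold change and adjusted p-value columns deposited by the authors (DESeq2 1.4.5) were not used.

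Raw counts were scaled by TMM and compared in R 4.3.3 with edgeR 4.0.16 (quasi-likelihood F test, no covariate) where they averaged 10 or more over the embryos, with Benjamini-Hochberg adjustment over 15114 genes and a threshold of 0.05. Standard errors were derived from the fold change and its F statistic. FPKM used RefSeq exon lengths of GRCm38.p6, available for 99.1% of genes. Ratios within embryos were taken on log2(count + 0.5). The embryos were littermates whose litters are not identified, and p-values measure the spread between them. The floor of 3 counts covers counting error only.

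The members and lists were chosen with earlier results of these data known. The genes named are all members, Dnmt3b and, of each list and of the genes within 1 Mb, up to 4 called genes with the largest change and the most abundant gene (for marker lists, called genes and those at 0 counts). Elf5, Mob2 and Ppfia1 were named, and the marker sum without Ahnak and the corrected difference of Cd81 and Tssc4 were added, after seeing the data. Alternatives were DESeq2 size factors, total counts, no filter or a mean of 50 or more, DESeq2 1.42.0, limma 3.58.1 on log2(CPM + 1), a replicate block, a GC content and length correction (splines with 5 degrees of freedom), both together, each embryo left out, a fold change above 2 and, for ratios, a pseudocount of 5 and medians. On simulated data (14943 genes), edgeR recovered 58.0% of 100 genes changed 2-fold and 85.9% of those changed 4-fold, with 12 false calls. No other genes were changed there, whereas 35.7% of the tested genes were called in the data, so these recovery rates may not carry over. Methylation libraries were not analysed here.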

Additional observations from a re-analysis of the deposited data

How the results depend on the processing

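H19, Cdkn1c and Kcnq1ot1 were called higher under all 15 alternatives that refitted the model, and Cd81 under none. Igf2 was called under all except total counts (0.37, edgeR adjusted p = 0.050). Requiring a fold change above 2 left 0 members higher and 0 lower. With the replicate block and the GC content and length correction together, 0 members were lower, as Tssc4 changed to -0.40 (edgeR adjusted p = 0.0763). The median log2 fold change of the paternally expressed members was 1.01 with the GC content and length correction, alone or with the replicate block, and that of the maternally expressed members was 0.78 and 0.71. The paternal median includes Kcnq1ot1, whose exon length few tested genes reach. The log2 ratio of H19 to Igf2, as Dnmt3b-/- minus WT, ran from -0.029 to 0.23 when each embryo was left out, below 0 without WT embryo 1. That of Cdkn1c to Kcnq1ot1 ran from -0.29 to 0.25, below 0 without WT embryo 1, WT embryo 3 or Dnmt3b-/- embryo 1, and its difference of medians was -0.0065. The causes were not tested.

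Same-numbered embryos did not deviate together (correlations of -0.049, -0.15 and -0.013), so they share only a number. With the replicate block 4 members were higher and 1 lower, as without it, and the calls over all genes went from 2654 higher and 2741 lower to 2172 and 2239. With the block and the GC content and length correction they were 1402 and 1281. Past a fold change of 2, 320 genes were higher and 571 lower, against 275 and 182 with the GC content and length correction, 212 and 143 with the block added, and 177 and 280 with limma. The share of lower genes among these calls was 64.1%, and 74.3% with total counts. The 3 embryos per genotype and the spread of Slc22a18, Kcnq1 and Ascl2 between embryos limit the precision of these values.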
